A study of Mus musculus with 67 samples.

Results

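Fgf21, Gdf15, Klb, Fgfr1 and Fgfr4 were followed by their gene identifiers through 67 mouse liver RNA-seq libraries, 5 of the 55450 genes counted. Fgf21 and Gdf15 encode hormones that the liver releases under nutrient and cellular stress, and the other genes encode FGF receptors and the co-receptor β-Klotho (Klb). The study compared DKO livers with wild-type (WT) livers, on leucine-free food and on control food. DKO stands for mice that the series calls Sestrin double knockouts and whose genotype label reads Sesn2 DKO. At day 1 (24 hours of feeding) there were 18 DKO and 12 WT livers on leucine-free food, and 8 DKO and 7 WT livers on control food. At day 8 there were 6 DKO and 6 WT livers on leucine-free food, and 5 DKO and 5 WT livers on control food. Within a group each library came from a separately numbered mouse, and the numbers start again in every group. Age, sex and strain are not stated in the labels. Sestrin2 is a leucine sensor that keeps the growth kinase complex mTORC1 in check while leucine is lacking.

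FGF21 made by the liver acts mainly on fat and brain, where β-Klotho together with FGFR1 forms its receptor. In hepatocytes β-Klotho pairs chiefly with FGFR4, the receptor for the gut hormone FGF15, which lowers bile acid synthesis. GDF15 acts on hindbrain neurons through GFRAL and RET and reduces food intake. Shortage of an amino acid activates the kinase GCN2, phosphorylation of eIF2α then favours translation of the transcription factor ATF4, and ATF4 with its partner CHOP (Ddit3) turns on stress genes, Fgf21 and Gdf15 among them. Fgf21 is also a target of the fasting factor PPARα.

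Library totals ran from 22814668 to 56916009 counts, with a median of 38732953. Sesn1 separated the genotypes without overlap, at 3.49 to 7.67 CPM (counts scaled to library size with TMM factors) in 37 DKO livers and 9.24 to 22.2 CPM in 30 WT livers. Sesn2, the gene in the genotype label, ranged from 10.6 to 36.9 CPM in DKO and from 9.60 to 19.6 CPM in WT livers, and whole-gene counts do not show which exons are missing. The summed level of 6 hepatocyte markers lay between 42542 and 129976 CPM in every library. Mean squared residuals over 3 median absolute deviations above the median marked 3 libraries, at 0.498 and 0.442 for replicates 11 and 12 of the WT leucine-free group at day 1 and 0.431 for replicate 6 of the DKO leucine-free group at day 8, with the next library at 0.389. Replicate 1 of the DKO leucine-free group at day 1 had no Xist counts, against 9456 to 38631 in the other libraries. It also had no counts of the Y-linked genes Ddx3y, Eif2s3y, Kdm5d and Uty, which summed to at most 1 count in any library. Without those 4 libraries the log2 fold changes of Fgf21 at day 1 were 3.37 for diet in DKO livers and 2.32 between genotypes on leucine-free food, both called.

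All 5 genes had counts in every library and passed the filter on low counts. Per kilobase of exon, the mean level over the 67 libraries was 15.2 CPM for Fgfr4, 15.0 CPM for Fgf21, 9.48 CPM for Klb, 5.61 CPM for Gdf15 and 0.641 CPM for Fgfr1. The mean of Fgf21 lay well above its median, which was 5.55 CPM per kilobase, and its range, 0.274 to 150 CPM per kilobase, spanned the ranges of all 4 other genes. Klb at 5.60 to 14.4 and Fgfr4 at 6.52 to 21.1 CPM per kilobase overlapped. With the length of the longest transcript in place of all exons, Klb stood at 12.2 CPM per kilobase, and the order of the 5 genes by mean was the same. On the CPM scale, the highest library exceeded the lowest by 548-fold for Fgf21, 12.5-fold for Gdf15, 4.04-fold for Fgfr1, 3.24-fold for Fgfr4 and 2.58-fold for Klb. Over all groups pooled, the hormone genes therefore spanned a wider range than the receptor genes did. Within groups the SD was 31.3% to 90.7% of the mean for Gdf15 and 11.9% to 46.0% for Fgfr1, so these 2 overlapped.

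Fgf21 rose in DKO livers after 1 day without leucine. This gene (ENSMUSG00000030827) lies on the minus strand of GRCm38 chromosome 7, at 45613886 to 45615490, with 951 bases of exon in a single annotated transcript. Its promoter is shown because it holds a match to the core of the composite C/EBP-ATF response element, the site class that ATF4 dimers bind. The sequence (RefSeq, GRCm38.p6, chr7:45615441-45615740, minus strand) runs 5′ to 3′ from 250 bases before to 50 bases after the start site, and the capitals mark the match, here the reverse complement of TGATGNAA.

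Fgf21 promoter: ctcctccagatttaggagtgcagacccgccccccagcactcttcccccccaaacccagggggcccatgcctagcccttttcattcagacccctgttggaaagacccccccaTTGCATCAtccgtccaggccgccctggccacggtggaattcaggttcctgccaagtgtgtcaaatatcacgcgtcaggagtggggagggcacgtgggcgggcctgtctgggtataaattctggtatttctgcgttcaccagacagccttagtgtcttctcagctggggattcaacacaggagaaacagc

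The match spans positions -139 to -132 from the start site. A CACGTG motif, the E-box letters read by carbohydrate-response and clock factors among others, lies at -50 to -45. Searched on both strands, TGATGNAA occurred in 1304 of 32851 RefSeq promoter windows of the same length (3.97%) and CACGTG in 7.15%. Among ATF4 and CHOP target genes with a window, 7 of 17 held TGATGNAA. That count is by gene, with a match in any of its windows, and the shares above are by window. The matches of 4 of them, turned to read in the same direction, are set beside that of Fgf21. Trib3 encodes a pseudokinase that restrains the response, Asns asparagine synthetase, Chac1 a glutathione-degrading enzyme and Atf3 a transcription factor. The capitals again mark the 8 bases searched for.

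Fgf21, chr7:45615614-45615637, plus strand: tggacggaTGATGCAAtggggggg
Trib3, chr2:152344031-152344054, plus strand: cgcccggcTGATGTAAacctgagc
Asns, chr6:7693217-7693240, minus strand: cagccacaTGATGAAActtcccgc
Chac1, chr2:119351041-119351064, minus strand: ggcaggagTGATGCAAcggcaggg
Atf3, chr1:191183428-191183451, plus strand: ggacttggTGATGCAAgtgcgaga

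Fgf21, Chac1 and Atf3 carried the same 8 bases, and Trib3 and Asns differed from them at the position that the motif leaves free. A match describes letters in a window and does not show binding.

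In leucine-free DKO livers at day 1, Fgf21 ranged from 3.82 to 143 CPM with a median of 30.9 CPM, against 0.766 to 14.2 CPM with a median of 2.65 CPM in DKO livers on control food. Of the 18 leucine-free livers, 15 lay above the highest control liver, and the groups overlapped through leucine-free replicates 1, 6 and 11. The means were 38.8 ± 31.8 CPM (SD, n = 18) on leucine-free and 4.00 ± 4.27 CPM (n = 8) on control food. The log2 fold change was 3.29 ± 0.56 (SE, 95% interval 2.17 to 4.42), with an adjusted p of 6.09e-06 by edgeR's quasi-likelihood test. Control replicate 5, at 14.2 CPM, stood apart from the other 7 controls, which reached at most 4.48 CPM, and without it the log2 fold change was 3.96. In this comparison 23.5% of the 16908 genes tested were called, meaning an adjusted p under 0.05, and of the 5 genes followed 2 were called, Fgf21 and Gdf15. A two-sided permutation test over livers gave p = 2e-05 for Fgf21, the smallest that 100000 resamples can give. In pieces of whole liver, a lower or higher share of a cell type and less or more RNA per cell cannot be told apart.

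**Figure D1:**
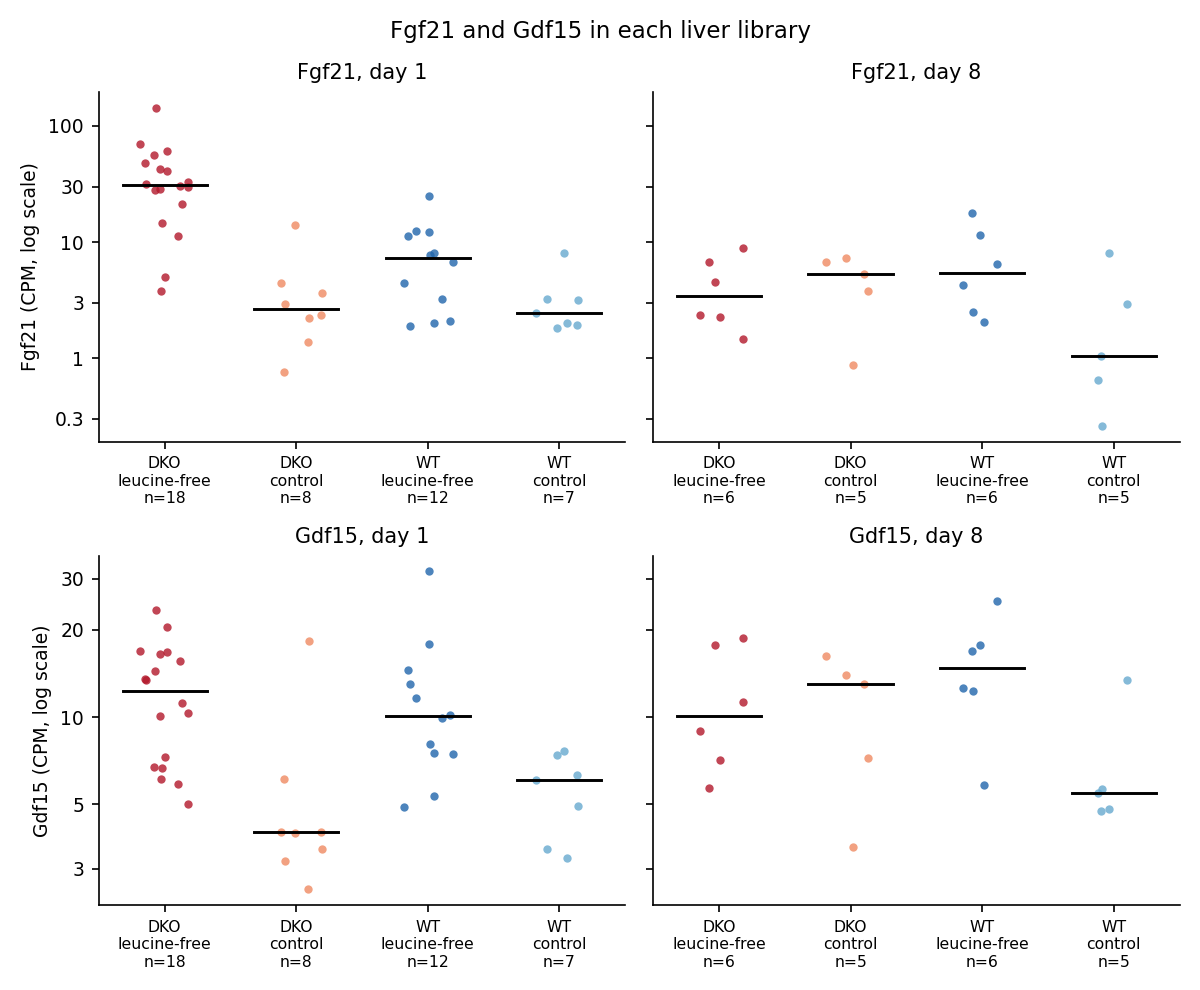
Level of Fgf21 (top) and Gdf15 (bottom) in each liver library at day 1 (left) and day 8 (right), in CPM on a log scale. Points are livers, lines are group medians, and n is given under each group; at day 1 the Fgf21 median was 30.9 CPM in DKO leucine-free livers and 2.65 CPM in DKO control livers.

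In WT livers the same diet gave a smaller difference that did not pass the test. Fgf21 ranged from 1.91 to 25.1 CPM with a median of 7.26 CPM in 12 leucine-free livers, against 1.80 to 8.01 CPM with a median of 2.46 CPM in 7 control livers. Only 4 of the 12 leucine-free livers lay above the highest control, so the groups overlapped widely. This gave a log2 fold change of 1.34 ± 0.59 with an adjusted p of 0.101, and 19.5% of all genes were called in this comparison. Of the 5 genes followed 1, Gdf15, was called. Control replicate 5 held 8.01 CPM where the other controls held at most 3.22 CPM. Without that library the log2 fold change was 1.75 and the adjusted p 0.0481.

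Fgf21 was also higher in DKO than in WT livers when both were fed without leucine for 1 day, with 38.8 ± 31.8 CPM (SD, n = 18) in DKO and 8.11 ± 6.65 CPM (n = 12) in WT livers. Of the DKO livers 13 lay above the highest WT liver. The log2 fold change was 2.24 ± 0.44 with an adjusted p of 0.00148, and Fgf21 was the 1 member of the 5 called where 3.70% of all genes were called. This comparison uses the same DKO leucine-free livers as the diet comparison. On control food at day 1 the means were 4.00 ± 4.27 CPM in DKO (n = 8) and 3.23 ± 2.19 CPM in WT livers (n = 7), a log2 difference of 0.29 ± 0.65 that was not called. None of the 5 genes was called there by edgeR or DESeq2, and none had an unadjusted p under 0.05, against 0.881% of all genes called. The direct test of whether the diet effect differed between DKO and WT at day 1 gave 1.95 ± 0.77 on the log2 scale for Fgf21 (95% interval 0.41 to 3.49). Its unadjusted p was 0.0141 and its adjusted p 0.631, so a genotype difference in the response was not called. None of the 5 genes was called in that test by edgeR or DESeq2, and Fgf21 was the 1 with an unadjusted p under 0.05, where 0.373% of all genes were called.

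At day 8 the Fgf21 difference between DKO diets was not detected. Leucine-free DKO livers held 1.46 to 8.88 CPM with a median of 3.41 CPM. The 5 DKO control livers held 3.79, 7.25, 0.877, 6.78 and 5.28 CPM, so the groups overlapped almost completely. Their log2 difference was -0.10 ± 0.72 (95% interval -1.55 to 1.35, adjusted p = 0.946). The diet effect in DKO livers was smaller at day 8 than at day 1 by 3.39 ± 0.89 on the log2 scale, given as a difference of -3.39 with an adjusted p of 0.00972. Fgf21 was the 1 gene of the 5 called in that test, against 8.84% of all genes. The difference was -4.06 without DKO control replicate 5 of day 1, and it was called without any 1 of the 37 libraries that enter it.

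WT leucine-free livers at day 8 held 2.03 to 17.9 CPM of Fgf21 with a median of 5.38 CPM. The 5 WT control livers held 8.03, 0.649, 1.04, 2.95 and 0.261 CPM. Only 2 of the 6 leucine-free livers lay above the highest control, and the log2 fold change was 1.34 ± 0.75 (adjusted p = 0.313). None of the 5 genes was called for diet in WT livers at day 8 by edgeR or DESeq2, and 1, Gdf15, by voom, where edgeR called 5.25% of all genes. Gdf15 was also the 1 gene with an unadjusted p under 0.05. The day 8 minus day 1 difference of the WT diet effect was -0.00 ± 0.93, with 1.64% of all genes called and none of the 5, of which none had an unadjusted p under 0.05. Fed without leucine to day 8, DKO livers differed from WT livers by a log2 fold change of -0.73 ± 0.68 (adjusted p = 0.703), with means of 4.37 ± 2.94 CPM in DKO and 7.44 ± 6.16 CPM in WT livers (SD, n = 6 each).

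Ordered by mean level, Fgf21 stood at 38.8 CPM in DKO leucine-free livers of day 1, followed by 8.11 CPM in WT leucine-free livers of day 1 and 7.44 CPM in WT leucine-free livers of day 8. The other 5 groups had lower means, the lowest being 2.59 CPM in WT control livers of day 8. Below the top group, the ranges of neighbouring groups overlapped throughout. Its spread within groups was wide, with an SD of 53.7% to 124% of the mean.

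Acinar cells of the pancreas also make Fgf21, so their markers were read in the same libraries. The sum of 10 acinar markers was 0.210 to 0.824 CPM in DKO leucine-free livers and 0.203 to 0.795 CPM in DKO control livers at day 1, with 7 and 8 of the markers at 0 in every library of the group. The 4 adipocyte markers summed to at most 0.356 CPM in any library. Of 6 hepatocyte markers 2 were lower in DKO leucine-free than in DKO control livers at day 1 and none higher, with sums of 42542 to 97588 CPM on leucine-free and 95162 to 112200 CPM on control food. In the same comparison 1 of 4 tested erythroid markers was lower (Alas2, by 0.71), 1 of 6 endothelial markers was higher (Lyve1, by 1.03), 1 of 6 stellate markers was higher (Ecm1, by 0.40) and 1 of 3 tested ileal enterocyte markers was lower. The sums overlapped between the diets, at 43.1 to 151 CPM on leucine-free and 70.5 to 134 CPM on control food for erythroid, 212 to 377 CPM and 161 to 357 CPM for endothelial, and 161 to 441 CPM and 166 to 346 CPM for stellate markers. Against leucine-free WT livers of day 1, whose sums were 67965 to 108245 CPM, 1 of the 6 was higher and 2 were lower in DKO livers, and 2 of 4 erythroid markers were lower. In WT livers at day 1, 2 of the 6 hepatocyte, 2 of 5 cholangiocyte, 1 of 4 erythroid and 1 of 3 ileal enterocyte markers were lower for diet, and 1 of 6 stellate and 1 of 5 neutrophil markers were higher. Fabp6, the untested ileal marker, had no counts in any library. Over all libraries the median was 0.415 CPM for the ileal marker Vil1, 80.6 CPM for Fabp2 and 12.2 CPM for Slc10a2. The part of these marker shifts in the hormone gene differences was not tested.

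The nearest tested gene, Fut1, a fucosyltransferase gene that starts 1799 bases from Fgf21 on the opposite strand, was also higher for diet in DKO livers at day 1, by 1.27 on the log2 scale (adjusted p = 0.00401). It was higher in WT livers at day 8 as well, by 1.77 (adjusted p = 0.0452). Where Fgf21 differed by 2.24 between leucine-free DKO and WT livers of day 1, Fut1 differed by 0.53 and was not called (adjusted p = 0.269). Bcat2, the branched-chain aminotransferase gene 24175 bases away, was higher for diet in DKO livers by 0.30 at day 1 and by 0.66 at day 8 (adjusted p = 0.0445 and 0.00148).

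Gdf15 rose for diet in both genotypes at day 1. The gene (ENSMUSG00000038508) lies on the minus strand of GRCm38 chromosome 8, at 70629393 to 70632456, with 1852 bases of exon. Its promoter is shown for comparison with that of Fgf21 (RefSeq, GRCm38.p6, chr8:70632407-70632706, minus strand, 5′ to 3′). TGATGNAA was not found in this window, so no base is in capitals, and an AGGTCA half-site, the letters recognised by PPARα and other nuclear receptors, lies at -55 to -50. AGGTCA occurred in 16.3% of all windows.

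Gdf15 promoter: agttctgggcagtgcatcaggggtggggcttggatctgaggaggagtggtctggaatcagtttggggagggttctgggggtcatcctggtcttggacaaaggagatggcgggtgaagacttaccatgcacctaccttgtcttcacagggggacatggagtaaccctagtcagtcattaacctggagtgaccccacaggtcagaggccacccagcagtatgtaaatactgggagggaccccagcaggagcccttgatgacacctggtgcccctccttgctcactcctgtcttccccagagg

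In DKO livers at day 1, Gdf15 ranged from 5.03 to 23.4 CPM with a median of 12.3 CPM on leucine-free food, against 2.54 to 18.3 CPM with a median of 4.00 CPM on control food. Control replicate 3, at 18.3 CPM, was far above the other 7 controls, which reached at most 6.13 CPM, and only 2 of the 18 leucine-free livers lay above it. The log2 fold change was 1.12 ± 0.33 (adjusted p = 0.0082), and it was 1.64 without that control library. With clock components as covariates it was 0.93 and not called (adjusted p = 0.0517).

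In WT livers at day 1, Gdf15 ranged from 4.88 to 31.8 CPM with a median of 10.1 CPM on leucine-free food, against 3.26 to 7.62 CPM with a median of 6.06 CPM on control food. Of the 12 leucine-free livers 8 lay above the highest control liver. This gave a log2 fold change of 1.09 ± 0.36 (adjusted p = 0.0242). The call was lost without WT control replicates 3 or 6 or WT leucine-free replicate 12, the library with 31.8 CPM, with log2 fold changes of 1.00, 1.00 and 0.85 (adjusted p = 0.0606, 0.058 and 0.0736). It was also lost with clock components (0.93, adjusted p = 0.0687), with the replicate block (0.84, adjusted p = 0.0938), without the 3 libraries of high residual (0.91, adjusted p = 0.0519) and with voom (0.78, adjusted p = 0.129).

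Gdf15 did not separate the genotypes where Fgf21 did. On leucine-free food at day 1 the means were 12.2 ± 5.41 CPM in DKO (SD, n = 18) and 11.8 ± 7.34 CPM in WT livers (n = 12), a log2 fold change of 0.04 ± 0.26 (95% interval -0.49 to 0.57, adjusted p = 0.957). The diet effect differed between genotypes at day 1 by 0.03 ± 0.47 (95% interval -0.91 to 0.98). That interval includes differences of nearly 1 log2 unit in either direction.

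At day 8 Gdf15 in WT livers ranged from 5.84 to 25.1 CPM with a median of 14.8 CPM on leucine-free food. The 5 WT control livers held 4.83, 5.47, 4.74, 13.4 and 5.65 CPM, and 3 of the 6 leucine-free livers lay above the highest of them. The diet difference was 1.13 ± 0.45 on the log2 scale, close to that of day 1, with an adjusted p of 0.127. It was 1.53 without control replicate 4, the liver with 13.4 CPM, and not called (adjusted p = 0.0617).

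DKO livers at day 8 held 5.71 to 18.7 CPM of Gdf15 with a median of 10.1 CPM on leucine-free food. The 5 DKO controls held 7.21, 13.9, 3.56, 16.2 and 13.0 CPM, so both groups covered the same range. Their log2 difference was 0.11 ± 0.43 (adjusted p = 0.897). The DKO controls of day 8 averaged 10.8 ± 5.23 CPM and the WT controls 6.83 ± 3.72 CPM (SD, n = 5 each), a log2 fold change of 0.64 ± 0.46 (adjusted p = 0.922). None of the 5 genes was called by edgeR or DESeq2 between genotypes on control food at day 8, and 1, Klb, by voom, where edgeR called 0.0532% of all genes. Klb was the 1 gene with an unadjusted p under 0.05. The day 8 minus day 1 difference of the DKO diet effect was -1.01 ± 0.54 for Gdf15 (adjusted p = 0.249). Without DKO control replicate 3 of day 1 it was -1.53 and called (adjusted p = 0.0457). The difference between genotypes in the day 8 diet effect was -1.03 ± 0.62 for Gdf15 and -1.44 ± 1.04 for Fgf21. None of the 5 genes was called in that test by edgeR or DESeq2, Fgfr4 was the 1 with an unadjusted p under 0.05, and 0.0414% of all genes were called.

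Within the DKO leucine-free livers of day 1, livers with more Fgf21 also had more Gdf15. Over these 18 livers, Pearson's r of log2 CPM was 0.695 and Spearman's rho 0.723, with permutation p-values of 0.00744 and 0.00792 adjusted over the 8 relations examined. Without the 2 livers farthest from the median Gdf15 level, r was 0.754 (adjusted permutation p = 0.00352, n = 16). Fgf21 also went with Trib3, with r = 0.599 and rho = 0.606 (adjusted permutation p = 0.0341 and 0.0366), but without the 2 livers farthest from the median Trib3 level r was 0.528 (unadjusted permutation p = 0.0342, n = 16) and did not pass after adjustment (adjusted permutation p = 0.137). The PPARα target Cyp4a14 and the clock output gene Dbp gave r = -0.291 and r = -0.15, with adjusted permutation p-values of 0.31 and 0.555.

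**Figure D2:**
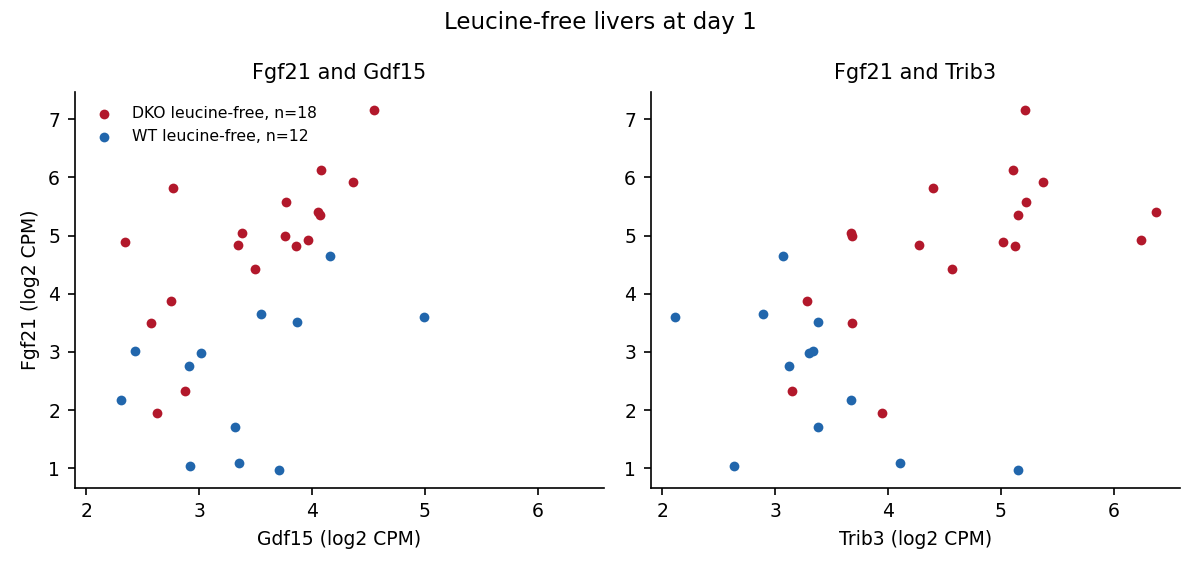
Fgf21 against Gdf15 (left) and against Trib3 (right) in leucine-free livers of day 1, all in log2 CPM. Each point is a liver, 18 DKO and 12 WT; in DKO livers r was 0.695 with Gdf15 and 0.599 with Trib3, and in WT livers 0.402 and -0.545.

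In the 12 WT leucine-free livers of day 1, r was 0.402 with Gdf15, -0.545 with Trib3, 0.639 with Cyp4a14 and -0.344 with Dbp. None of these passed after adjustment, with the lowest adjusted permutation p at 0.0717 for Cyp4a14 (rho = 0.594, adjusted permutation p = 0.118, r = 0.424 without 2 livers). WT replicate 12, the liver with the highest Gdf15, is also 1 of the libraries of high residual. Whether the relations differ between genotypes was not tested.

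Klb (ENSMUSG00000029195), the co-receptor gene, was not called by edgeR in any of the 12 comparisons. It lies on the plus strand of chromosome 5, at 65348314 to 65384007. At day 1 its group means lay between 38.5 and 42.2 CPM, and the ranges of the 4 groups overlapped. At day 8 DKO leucine-free livers held 43.8 to 65.6 CPM with a median of 60.0 CPM, and WT leucine-free livers held 38.4 to 47.7 CPM with a median of 42.8 CPM. On control food the DKO livers held 55.0, 59.1, 51.9, 56.7 and 54.1 CPM and the WT livers 34.4, 38.9, 51.2, 32.7 and 54.5 CPM. So 5 of 6 DKO livers on leucine-free food and 3 of 5 on control food lay above the highest WT liver of the same diet. The log2 fold changes, DKO over WT, were 0.42 ± 0.14 (adjusted p = 0.0927) on leucine-free and 0.39 ± 0.15 (adjusted p = 0.642) on control food. Limma voom with quality weights called both, at 0.46 and 0.47 (adjusted p = 0.0289 and 0.0486).

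**Figure D3:**
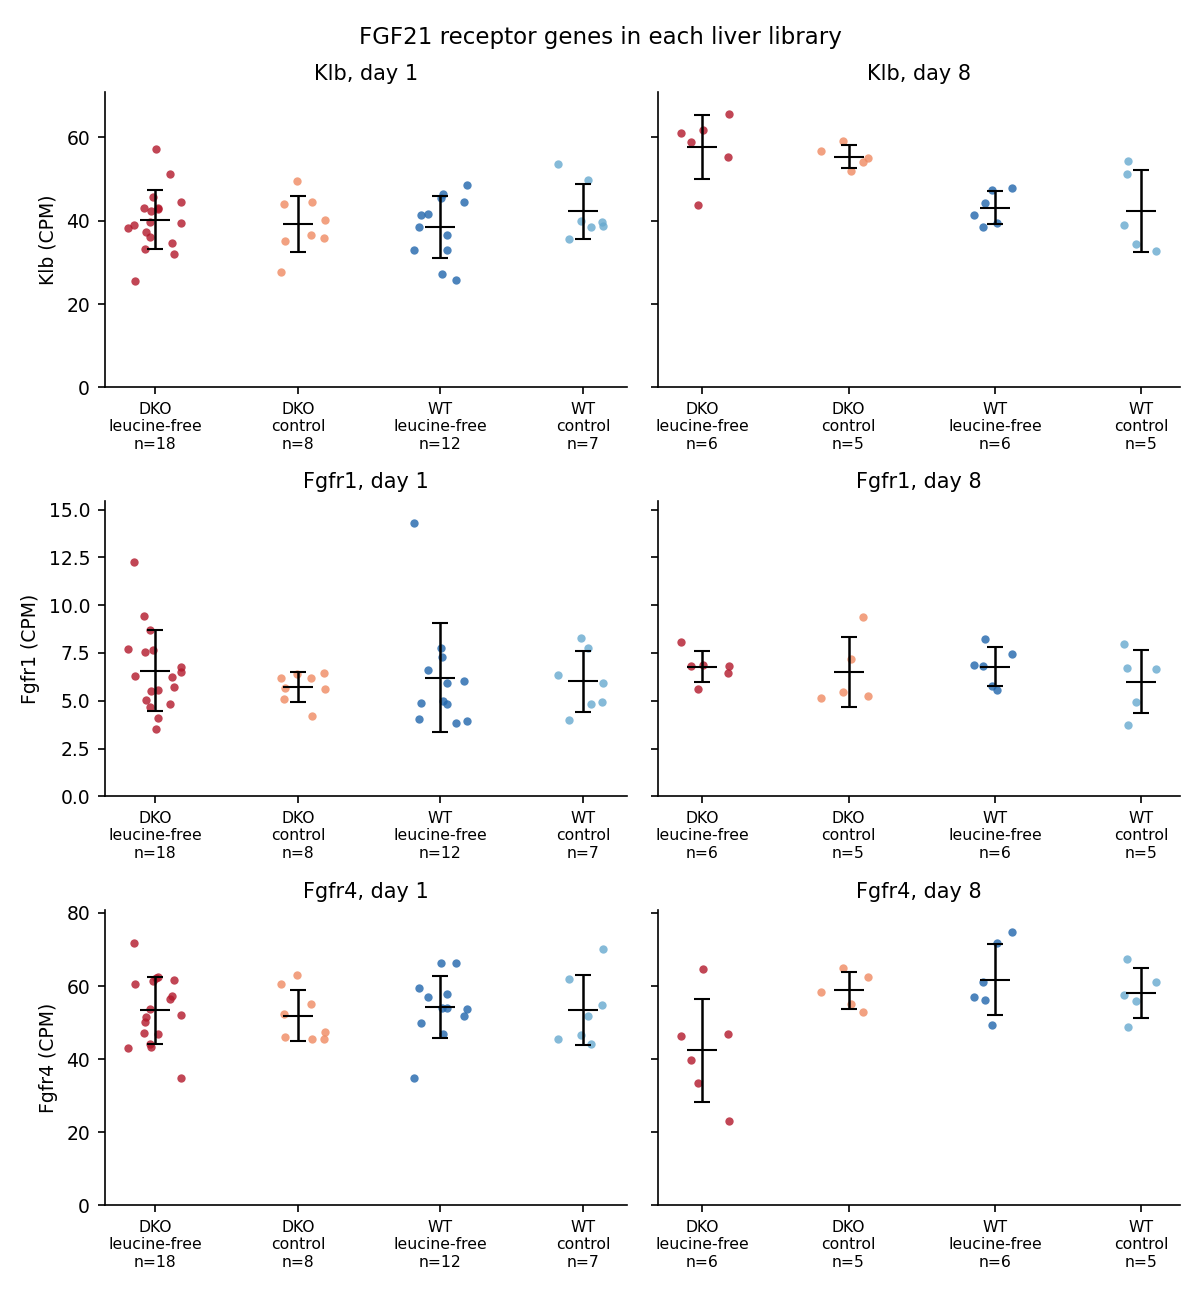
Level of Klb, Fgfr1 and Fgfr4 in each liver library at day 1 (left) and day 8 (right), in CPM from 0. Points are livers, and bars are the group mean ± SD; at day 8, 5 of 6 DKO leucine-free livers lie above every WT leucine-free liver for Klb and below every one for Fgfr4.

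Low in every group was Fgfr1 (ENSMUSG00000031565, plus strand of chromosome 8, 25513654 to 25575718), the receptor that FGF21 uses in fat. Its group means lay between 5.72 and 6.78 CPM and it was not called in any of the 12 comparisons. Its highest liver, 14.3 CPM, was a WT leucine-free liver of day 1. The antisense gene Gm16159 overlaps Fgfr1, and as no strand setting of the counting was found, reads of the 2 genes cannot be told apart.

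Fgfr4 (ENSMUSG00000005320, plus strand of chromosome 13, 55152640 to 55168759), the main hepatocyte FGF receptor, fell in DKO livers at day 8 without leucine. Leucine-free DKO livers held 23.1 to 64.7 CPM with a median of 43.1 CPM, and the 5 DKO control livers held 62.6, 65.1, 55.1, 58.5 and 53.0 CPM. Of the 6 leucine-free livers 5 lay below the lowest control, and replicate 1, at 64.7 CPM, lay near the highest. The means were 42.4 ± 14.1 CPM (SD, n = 6) and 58.8 ± 5.04 CPM (n = 5), a log2 difference of -0.47 ± 0.15 (adjusted p = 0.0198). Fgfr4 was the 1 gene of the 5 called, in a comparison that called 20.6% of all genes. The call was lost without DKO control replicate 2 or DKO leucine-free replicates 2 or 6 (log2 fold changes of -0.43, -0.35 and -0.41, adjusted p = 0.0531, 0.0905 and 0.0567), and in a fit of only the groups compared (adjusted p = 0.114).

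Set against WT livers fed without leucine to day 8, Fgfr4 was also lower, at 42.4 ± 14.1 CPM in DKO and 61.7 ± 9.75 CPM in WT livers (SD, n = 6 each), with 5 of 6 DKO livers below the lowest WT liver. The log2 fold change was -0.54 ± 0.15 (adjusted p = 0.0312), and Fgfr4 was the 1 gene of the 5 called where 2.06% of all genes were. The same DKO leucine-free livers enter both comparisons. Leaving out 1 of WT replicates 1, 3 and 4 or of DKO replicates 2, 5 and 6 on leucine-free food ended the call, with log2 fold changes between -0.54 and -0.42 and adjusted p between 0.0505 and 0.146. So did clock components as covariates, with a log2 fold change of -0.31 (adjusted p = 0.294), a fit of only the groups compared (adjusted p = 0.234), leaving out the 3 libraries of high residual (adjusted p = 0.0804) and testing without the expression filter (adjusted p = 0.0587). The difference in diet effect between genotypes at day 8 was -0.56 ± 0.22 (adjusted p = 0.366) and that between days in DKO livers -0.51 ± 0.19 (adjusted p = 0.073), neither called. At day 1 the group means of Fgfr4 lay between 51.9 and 54.3 CPM.

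The median sum of 6 macrophage markers was lower on leucine-free than on control food at day 8 in both genotypes. In WT livers the sums were 176 to 383 CPM on leucine-free and 429 to 570 CPM on control food. Mean Fgfr4 in these WT livers was 61.7 CPM on leucine-free and 58.1 CPM on control food. In DKO livers at day 8, 5 of 6 macrophage markers were lower on leucine-free food, with sums of 112 to 495 CPM, against 480 to 605 CPM on control food, none of the 6 being at 0. Of the erythroid markers 3 of 4 tested were lower, of the hepatocyte markers 1 of 6 was lower, and Cela2a was the 1 acinar marker with enough counts to be tested and was higher. The sum of the 10 acinar markers was 0.451 to 2.46 CPM on leucine-free and 0.481 to 0.768 CPM on control food, with 4 and 8 markers at 0 in every library. Of 5 cholangiocyte markers 1 was lower, and of 3 tested ileal enterocyte markers 2 were lower. Fabp6, the untested ileal marker, had no counts in any library. Set against leucine-free WT livers of day 8, 1 of 6 hepatocyte markers was lower in DKO livers, Cela2a was higher and 1 of 6 endothelial markers was higher. The endothelial marker was Lyve1, at 29.8 ± 17.0 CPM in DKO and 9.44 ± 2.68 CPM in WT livers (SD, n = 6 each, log2 fold change 1.66 ± 0.43, adjusted p = 0.0234), and the sum of the 6 was 221 to 404 CPM in DKO and 209 to 326 CPM in WT livers. No marker of the other cell types was called in that comparison. The part of these shifts in the Fgfr4 differences was not tested.

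**Figure D4:**
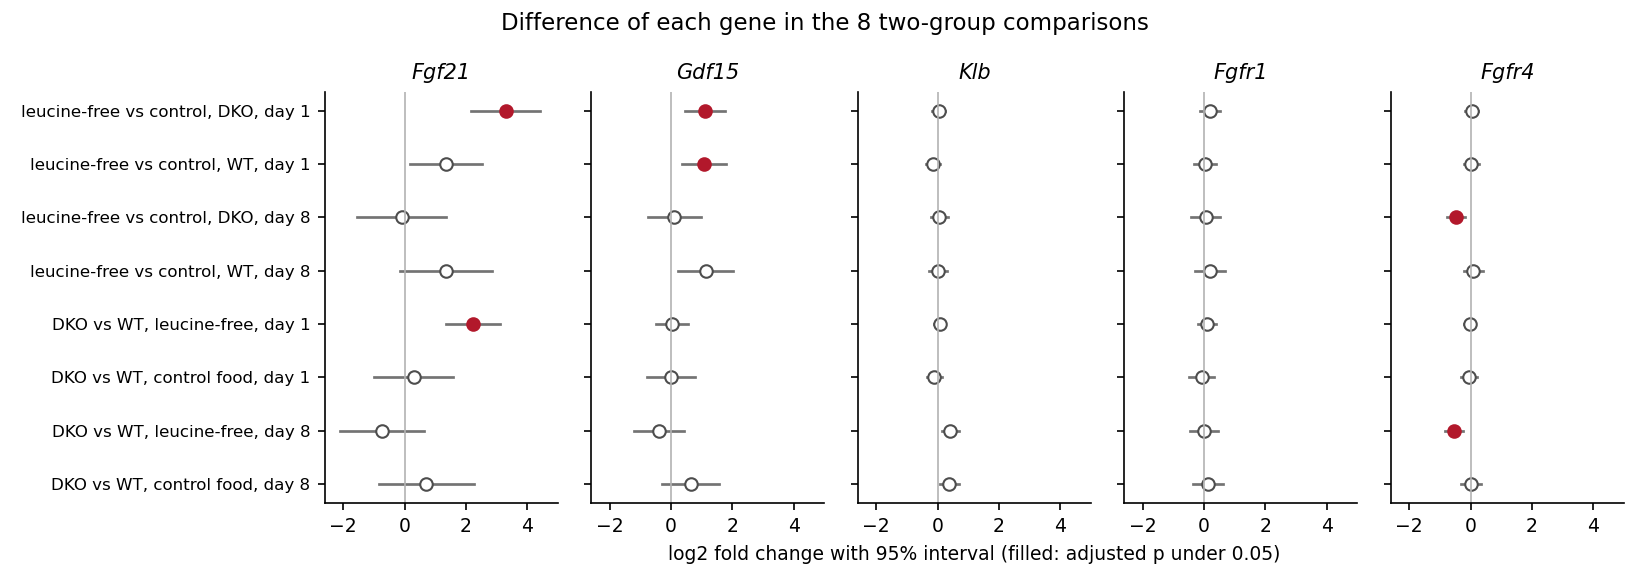
log2 fold change of each gene in the 8 comparisons of 2 groups, with 95% intervals from edgeR's fit. Filled points have an adjusted p under 0.05: Fgf21 for diet in DKO and between leucine-free DKO and WT livers at day 1, Gdf15 for diet in both genotypes at day 1, and Fgfr4 in 2 comparisons at day 8.

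Other FGF ligands, receptors and co-receptors were measured as well, in a list of 10 genes that also holds Fap, a protease that cleaves human FGF21. Enough counts to be tested were found for 6 of the 10, Fap among them. Fgf15 had no counts in any library, and Kl, the co-receptor for FGF23, reached at most 3 counts. Fgfr3 was lower on leucine-free food in WT livers at day 1 by 0.41 on the log2 scale and in DKO livers at day 8 by 0.84, with adjusted p of 0.00372 and 4.94e-06. With all libraries, Fgfr3 was also lower by 0.57 in DKO than in WT livers on leucine-free food at day 8 (adjusted p = 0.0117). Its day 8 minus day 1 difference of the DKO diet effect was -0.60 (adjusted p = 0.0174). A fall at day 8 was thus not particular to Fgfr4. Fgfrl1, a receptor without a kinase domain, was lower by 0.35 in DKO than in WT livers fed without leucine for 1 day (adjusted p = 0.0107). On control food Fgfrl1 was lower in DKO livers by 0.37 at day 1 and higher by 0.34 at day 8, neither called (adjusted p = 0.213 and 0.692). Its diet effect at day 1 differed between genotypes by 0.02 ± 0.15, not called. Fgf1, another liver-active FGF, was higher for diet in DKO livers at day 1 by 0.49 (adjusted p = 0.00808). WT livers at day 1 held 122 ± 27.5 CPM of Fgf1 on leucine-free and 91.3 ± 13.1 CPM on control food (SD, n = 12 and 7). The Fgf1 diet effect differed between genotypes by 0.06 ± 0.21 at day 1, not called. Gfral, the GDF15 receptor, had no counts in any library, and Ret had at most 4 counts in a library.

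Upstream factors moved in both directions. Atf4 mRNA was at 102 ± 19.0 CPM in DKO leucine-free and 116 ± 14.7 CPM in DKO control livers at day 1, a log2 fold change of -0.19 ± 0.11 (adjusted p = 0.204). In WT livers at day 1 it was lower by 0.32 ± 0.12 (adjusted p = 0.0455), a call lost without any 1 of control replicates 1, 3, 6 and 7 or leucine-free replicates 1, 2, 3, 6, 7, 10 and 11 (adjusted p between 0.0584 and 0.129). ATF4 is controlled largely at translation, which RNA counts do not show. Ddit3 (CHOP) was higher for diet in DKO livers at day 1 by 1.31 ± 0.36 (adjusted p = 0.00498), and 0.84 ± 0.39 in WT livers did not pass (adjusted p = 0.129). Leucine-free DKO and WT livers of day 1 gave a Ddit3 log2 difference of 0.37 ± 0.30, not called (adjusted p = 0.538). Of 15 kinases and factors upstream of Fgf21 and Gdf15, 4 were higher and 3 lower for diet in DKO livers at day 1 (46.7%, against 23.5% of all genes), with Atf5, a further eIF2α-controlled factor, higher by 0.93 and Eif2ak4, which encodes GCN2, lower by 0.33. In WT livers 1 was higher and 1 lower (13.3%, against 19.5% of all genes). In DKO against WT livers without leucine for 1 day none was higher and 3 were lower (20%, against 3.70% of all genes), Nfe2l2 by 0.42 and Mlxipl, which encodes the carbohydrate-response factor ChREBP, by 0.33.

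Some ATF4 and CHOP target genes were higher in both day 1 comparisons in which Fgf21 was called, and also for diet in DKO livers at day 8, where Fgf21 was not. Of 19 tested, 7 were higher and none lower for diet in DKO livers at day 1 (36.8%, median log2 fold change 0.39, against 23.5% called and a median of 0.02 over all genes). Trib3 stood at 30.4 ± 20.8 CPM in DKO leucine-free and 6.62 ± 2.46 CPM in DKO control livers, the log2 difference being 2.20 ± 0.42 (adjusted p = 4.5e-05), and Sesn2 and Slc3a2, a subunit of amino acid transporters, were higher by 0.81 and 0.38. In WT livers at day 1, 3 were higher and 1 lower (21.1%, median -0.21, against 19.5% and 0.01 over all genes), with the cell cycle inhibitor gene Cdkn1a at 2.46, or 1.41 without WT leucine-free replicate 12, Slc3a2 at 0.40 and Mthfd2, of mitochondrial folate metabolism, at -1.31. Trib3 in WT livers at day 1 gave 0.84 ± 0.44 (adjusted p = 0.187). Comparing leucine-free DKO with WT livers of day 1, 9 of 19 were higher in the DKO group and 0 lower (47.4%, median 0.67, against 3.70% and 0.00 over all genes), led by Ddit4, an inhibitor of mTORC1, at 3.12, the leucine transporter gene Slc7a5 at 0.93 and Sesn2 at 0.72. The count lay between 7 and 10 when any 1 library was left out. It includes Sesn2, the gene in the genotype label, and whether the Sesn2 difference reflects the altered gene was not tested.

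At day 8, for diet in DKO livers, 10 of 19 were higher and 1 lower (57.9%, median 0.85, against 20.6% and 0.01 over all genes), while Fgf21 was at -0.10. Asns stood at 15.5 ± 12.8 CPM in DKO leucine-free and 1.37 ± 0.354 CPM in DKO control livers, higher by 3.48 ± 0.73 on the log2 scale (adjusted p = 0.000304). Trib3 was higher by 3.13 and Psat1, of serine synthesis, by 2.72, and these were 2.34 and 1.94 without DKO leucine-free replicate 6, both still called. At day 1 the Asns log2 fold change for diet in DKO livers was 0.33 ± 0.47 (adjusted p = 0.659). DKO control livers then held 4.20 ± 2.55 CPM of Asns (SD, n = 8), a higher mean than the 1.37 CPM of day 8. The control ranges overlapped, at 1.69 to 9.26 CPM at day 1 and 1.06 to 1.95 CPM at day 8. That difference between days was not tested. The diet effect in DKO livers was larger at day 8 than at day 1 for Asns by 3.14 ± 0.85 (adjusted p = 0.0122), whereas for Fgf21 it was smaller by 3.39. In WT livers at day 8, 2 of 19 were higher. Against leucine-free WT livers of day 8, 5 were higher in DKO livers, Sesn2 among them, but none of the 19 was without DKO leucine-free replicate 6. Trib3 was higher by 2.32 with all libraries (adjusted p = 0.00778), and the value without that replicate was 1.53 (adjusted p = 0.104). Asns gave 2.21 (adjusted p = 0.044), a call lost without any 1 of WT leucine-free replicates 1, 2, 3 and 6 or DKO leucine-free replicates 2, 3 and 6 (adjusted p between 0.057 and 0.157).

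**Figure D5:**
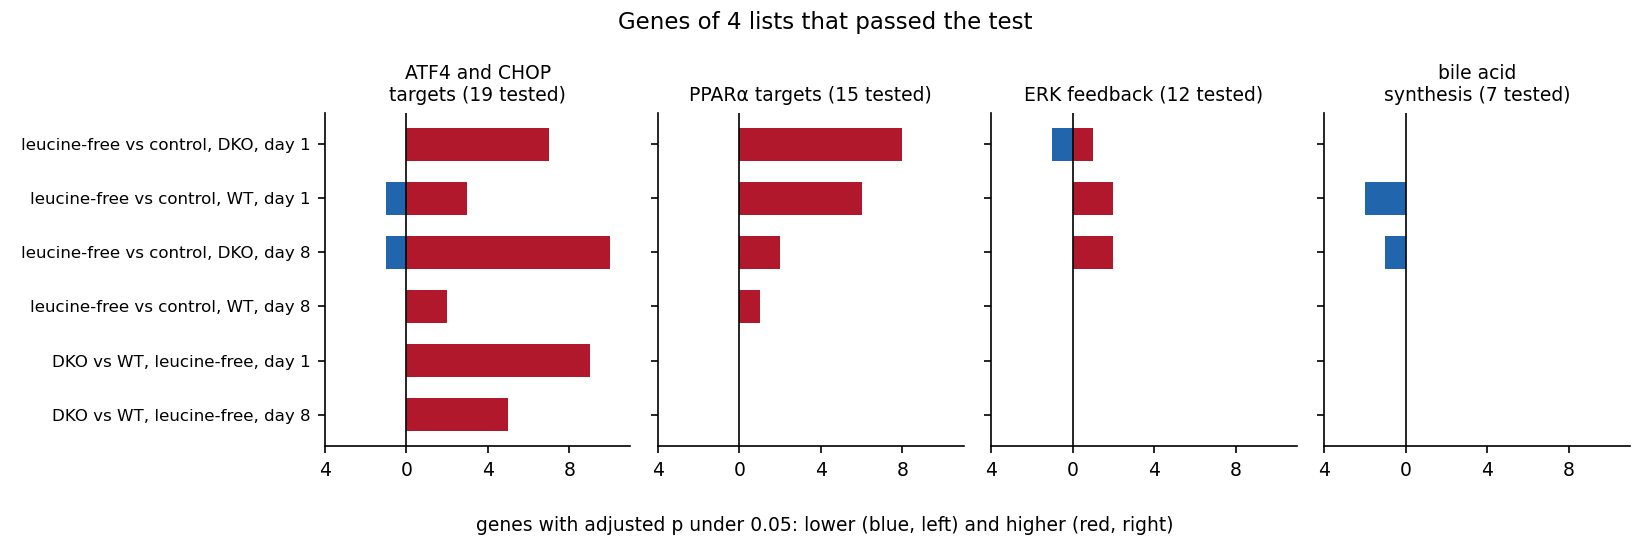
Number of genes in 4 lists with an adjusted p under 0.05, lower to the left in blue and higher to the right in red, in 6 comparisons. Of 19 ATF4 and CHOP targets, 7 were higher for diet in DKO livers at day 1 and 10 at day 8; of 15 PPARα targets, 8 and 2.

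Of the PPARα target genes, a part rose for diet at day 1 in each genotype. In DKO livers 8 of 15 were higher and none lower (53.3%, median 0.58, against 23.5% of all genes called), and in WT livers 6 of 15 (40.0%, median 0.70, against 19.5%). Acadm, an enzyme of fat oxidation, was higher by 0.74 in DKO and by 0.77 in WT livers, and the lipase inhibitor Angptl4 by 1.84 in DKO and by 2.13 in WT livers. None of the 15 was called by edgeR between leucine-free DKO and WT livers of day 1, where the list median was -0.06 and that of all genes 0.00, and 1 of the 15 had an unadjusted p under 0.05. At day 8, 2 of 15 were higher in DKO livers (13.3%, against 20.6% of all genes) and 1 in WT livers (6.67%, against 5.25%), and none of the 15 in DKO livers without DKO control replicate 3. The diet effect in DKO livers was smaller at day 8 than at day 1 for 2 of the 15, with Vnn1, a pantetheinase gene, at -1.70 (adjusted p = 0.0157).

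Genes downstream of FGF receptors were called at shares below and above those of all genes. Of 12 ERK feedback and immediate early genes 1 was higher and 1 lower for diet in DKO livers at day 1, 2 were higher in WT livers at day 1 and 2 were higher in DKO livers at day 8. That is 16.7% in each, against 23.5%, 19.5% and 20.6% of all genes. Dusp6, a phosphatase gene induced by ERK, was at 64.5 ± 16.3 CPM in DKO leucine-free and 64.5 ± 19.4 CPM in DKO control livers at day 1 (log2 fold change -0.00 ± 0.20). Spry4, a further feedback gene, gave -0.15 ± 0.26, and neither was called in any of the 6 comparisons in which a followed gene was called. Of 12 adaptor and cascade genes 1 was higher and 3 lower for diet in DKO livers at day 1, 33.3% against 23.5% of all genes, with Map2k1 (MEK1) lower by 0.22. Of 7 bile acid genes edgeR called none for diet in DKO livers at day 1 (2 had an unadjusted p under 0.05), and none between leucine-free DKO and WT livers at day 1 (3) or day 8 (1). In the alternatives up to 2 were called lower for diet in DKO livers at day 1, and up to 2 higher in DKO than in WT livers at day 1. Cyp7a1 encodes the rate-limiting enzyme of bile acid synthesis, which FGFR4 signalling represses. At day 8 Cyp7a1 was at 89.8 ± 50.6 CPM in DKO leucine-free and 35.5 ± 16.3 CPM in DKO control livers (log2 fold change 1.34 ± 0.74, adjusted p = 0.208). Cyp8b1, of the same pathway, was lower there by 1.66 (adjusted p = 0.00948). The Cyp7a1 diet effect at day 1 was larger in DKO than in WT livers by 1.62 ± 0.77, not called (adjusted p = 0.821). Mean Fgfr4 at day 1 lay between 51.9 and 54.3 CPM. A relation of Cyp7a1 to the Fgfr4 level was not tested.

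The genes most like each of the 5 across all 67 libraries were listed as a description, since libraries of a group share their treatment. For Fgf21 they were Gpat3 (r = 0.717), Sesn2 (0.697) and G0s2 (0.695), which came to 0.384, 0.499 and 0.452 after the group means were removed. Gpat3 makes glycerolipids and G0s2 inhibits the lipase ATGL. Sesn2 is the gene in the genotype label. For Gdf15 they were Slc3a2 (0.576), Xpc (0.539) and Slu7 (0.533), with 0.299, 0.381 and 0.26 within groups. For Fgfr4 they were Hexim1, Rab32 and Vmo1 at 0.725, 0.707 and 0.704, and 0.756, 0.719 and 0.669 within groups. Klb was most like Osbpl1a, Retreg1 and Tsc1 at 0.709, 0.7 and 0.69, and Fgfr1 was most like Adamtsl3, Dync2li1 and Rasal1 at 0.536, 0.522 and 0.516. Among the 5 genes themselves, the highest r was 0.491, between Fgf21 and Gdf15 (0.397 within groups). The others lay between -0.234 and 0.161.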

How the data were processed

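RNA was extracted from flash-frozen liver with a miRNeasy kit and made into directional libraries with the NEBNext Ultra II kit, per the labels' protocols. The values are raw counts per Ensembl gene, deposited by the authors as whole numbers for each library. STAR 2.7.1a and featureCounts 2.0.1 were used, as was DESeq2 1.26.0, with GRCm38 (mm10) as genome, per the submitters' processing notes, which give no roles. Their strand setting was not found there or in the labels. All 55450 identifiers matched GENCODE M21 (GRCm38). A count table of the whole series was not used. No molecular identifiers are mentioned, and reads without them are no independent molecules. No libraries of a group agreed within sampling noise (lowest chi-square per degree of freedom 16.9).

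TMM scaling was applied, and the robust quasi-likelihood test of edgeR 4.0.16 (R 4.3.3) was run in 1 model of 8 groups over 67 libraries. The filter kept 16908 genes, and p-values were adjusted by Benjamini and Hochberg over all of them in each of 12 comparisons. CPM are counts over TMM-scaled totals, errors of log2 fold changes are SE, and log2 CPM uses a prior count of 2. The groups share 1 estimate of the spread, although they did not vary equally. The fit was tested on simulated data. Permutation tests used 100000 resamples or all regroupings (SciPy, Python). Promoter windows came from RefSeq (GRCm38.p6), where 4 of the 5 genes had one. Gdf15 had a further window, which held CACGTG.

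The members and the gene lists were chosen with earlier results of these data known. Genes of the lists were named if they ranked among the 3 smallest adjusted p of a list in a comparison with a called member and kept their call when any 1 library was left out. Atf4, Ddit3, Trib3, Asns, Cyp7a1, Gfral, Dusp6 and Spry4 were named in any case, and other exceptions are stated with their values. Some genes that the rule names are left out here. Fut1, Bcat2, the cell type markers named singly and the counts at 0 were described after their values were seen. Alternatives used limma 3.58.1 and DESeq2 1.42.0.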

Additional observations from a re-analysis of the deposited data

Results flagged for a closer look

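Single livers stood apart from their group in 4 of 30 sets of values examined. By chance the rule flags about 1 in 20 sets if values are normally distributed. It was applied to CPM and not to log2 CPM, so that rate may not hold here. Fgf21 in DKO control replicate 5 of day 1 was at 14.2 CPM, and the next liver of that group at 4.48 CPM. Fgf21 in WT control replicate 5 of day 1 was at 8.01 CPM, and the next at 3.22 CPM. Gdf15 in DKO control replicate 3 of day 1 was at 18.3 CPM, and the next at 6.13 CPM. Gdf15 in WT control replicate 4 of day 8 was at 13.4 CPM, and the next at 5.65 CPM. All 4 are high livers among controls, and control groups made up most of the sets examined. The leucine-free groups of day 1, with 18 and 12 livers, were not examined in this way, which covers sets of 4 to 10 livers. The Fgf21 response to the diet in DKO livers differed between the days, by -3.39 on the log2 scale for day 8 minus day 1.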

How the results depend on the processing

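The 3 Fgf21 calls (diet in DKO livers and between leucine-free DKO and WT livers at day 1, and the difference between days in DKO livers) held in every alternative run. The uncalled Fgf21 difference for diet in WT livers at day 1 was called without WT control replicate 5 (1.75, adjusted p = 0.0481). All other changes of call lie with the other genes. Of the 5 genes, the number called for diet in WT livers at day 1 was 0 in place of 1 with the mouse number as a replicate block, with 2 clock components as covariates, without the 3 libraries of high residual, without these and the library lacking Xist counts, with voom, and with permutation tests; the Gdf15 log2 fold change was then 0.84, 0.93, 0.91, 0.91, 0.78 and 0.95. Mouse numbers did not pair the livers: over 168 same-number pairs the median correlation of deviations was 0.013, against -0.002 for other pairs, and the replicate block changed no other number of genes called. With the clock components 1 of 5 was called for diet in DKO livers at day 1, since Gdf15 was at 0.93 (adjusted p = 0.0517), and 2 for the day difference in DKO livers, as with voom (Fgfr4, adjusted p = 0.0403 and 0.00876). Between leucine-free DKO and WT livers at day 8 it was 0 in place of 1 with no expression filter, with clock components (Fgfr4 at -0.31, adjusted p = 0.294), without the 3 libraries of high residual (-0.48), with only the groups compared (-0.54, adjusted p = 0.234) and with permutation tests, and 2 with voom (Klb at 0.46, Fgfr4 kept). Without the 3 libraries and that lacking Xist counts, Klb (0.49) was called and Fgfr4 (-0.48) was not. For diet in DKO livers at day 8 it was 0 with only the groups compared (Fgfr4 adjusted p = 0.114) and with permutation tests. With voom it was 1 in place of 0 for diet in WT livers at day 8 (Gdf15 at 1.19) and between genotypes on control food at day 8 (Klb at 0.47). The correlation of Fgf21 with Trib3 was 0.528 without 2 livers.

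Leaving out 1 library at a time, the number called lay between 0 and 2 for diet in WT livers at day 1, 0 and 1 for diet in DKO livers at day 8, 0 and 1 between leucine-free DKO and WT livers at day 8, and 1 and 2 for the day difference in DKO livers. Some uncalled log2 values changed sign. Fgf21 for diet in DKO livers at day 8 lay between -0.41 and 0.11, for the day difference in WT livers between -0.49 and 1.16, and between genotypes on control food at day 1 between -0.37 and 0.70. Gdf15 lay between -0.12 and 0.30 for diet in DKO livers at day 8, -0.16 and 0.44 for the day difference in WT livers, -0.52 and 0.12 between genotypes on control food at day 1, -0.040 and 0.28 on leucine-free food, and -0.083 and 0.56 for the genotype difference in the day 1 response. Fgfr4 lay between -0.63 and -0.35 for diet in DKO livers at day 8 and between -0.70 and -0.42 between genotypes.

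Among the other alternatives, the WT day difference of Fgf21 was 0.0098 with a mean CPM of at least 1, 0.10 with the older dispersion, 0.87 with voom and 0.19 with DESeq2. Fgf21 between genotypes on control food at day 1 was -0.025 with clock components, -0.21 with voom and -0.0024 with permutation tests. Gdf15 there was -0.10 with the replicate block, -0.078 with clock components, -0.0052 with only the groups compared, -0.31 with voom and -0.20 with permutation tests. With clock components Gdf15 was -0.017 for diet in DKO livers at day 8, -0.075 between leucine-free DKO and WT livers at day 1 and -0.023 for the WT day difference, and without the 3 libraries, or these and the library lacking Xist counts, it was -0.059 for diet in DKO livers at day 8. The cause of these changes was not tested. Over the whole table, the number of genes called between leucine-free DKO and WT livers lay between 284 and 1610 at day 1, in place of 625, and between 81 and 463 at day 8, in place of 349. On control food it lay between 53 and 157 at day 1, in place of 149, and between 4 and 100 at day 8, in place of 9. It lay between 501 and 1962 for diet in WT livers at day 8, in place of 888, between 140 and 643 for the WT day difference, in place of 278, and between 949 and 2001 for that of DKO livers, in place of 1494. For the genotype difference in the response it lay between 28 and 74 at day 1, in place of 63, and between 0 and 92 at day 8, in place of 7. Groups of 5 and 6 livers limit what could be detected at day 8.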
